A study of Mus musculus with 8 samples.

Results

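Muscle spots of the mouse small and large intestine are described here, as captured on 10x Visium slides, on which each spot records the transcripts of a small tissue area as unique molecular identifiers (UMIs, 1 per captured molecule). The spots were selected on their UMIs of 4 smooth muscle genes, Myh11, Actg2, Des and Acta2. In each of 4 sections, spots with at least 500 UMIs were kept and the 15% with the highest share of their UMIs from these genes, called the muscle fraction below, were taken. This gave 1339 muscle spots of 8938 kept spots, namely 314 and 385 in the small and 314 and 326 in the large intestinal sections. The kept spots not taken are called the other spots. A spot can hold several cells of different types, or part of one, so a muscle spot is a region rich in muscle transcripts and not a set of muscle cells.

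The series holds 8 libraries, of which the 4 Visium sections were used here, 2 of each tissue. They came from intestinal tubes of C57BL/6 mice labelled WT, cut as 10 µm cryosections and processed with an immunofluorescence protocol. No treatment, age or sex is named in the labels for these sections, and they carry no transgene that the labels name. The 2 sections of a tissue are technical duplicates per the series' design text. Each tissue is therefore 1 sample, tissue and animal cannot be told apart, and no p-value is given anywhere. Total UMIs per section were 24356162 and 30091604 in the small and 41257593 and 43833127 in the large intestine. The duplicates still differed by more than sampling noise, with a chi-square per degree of freedom over genes of 41.3 for the small and 5.71 for the large intestinal pair, so they were not the same library deposited again. Spot barcodes name array positions and recur between slides (1224 in both small and 1597 in both large intestinal sections). They are not shared cells. Where 4 values are listed below, they stand in the order small intestinal sections 1 and 2, then large intestinal sections 1 and 2.

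The wall of the intestine carries an inner circular and an outer longitudinal layer of smooth muscle, with the myenteric plexus of neurons and glia between them and a mesothelium on the outer face. Smooth muscle contracts when calcium activates myosin light chain kinase, and pacemaker and other interstitial cells and enteric neurons set its rhythm and tone. A thinner sheet, the muscularis mucosae, lies just under the crypts, and blood vessels carry smooth muscle and pericytes of their own. The spots' positions in the tissue were not used here, so the rule does not tell these layers apart.

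Muscle spots of the small intestine were richer in muscle transcripts than those of the large intestine. The 4 choosing genes made up 3.81% and 4.30% of UMIs in small and 1.39% and 1.22% in large intestinal muscle spots, against 0.222%, 0.311%, 0.0681% and 0.0629% in the other spots. The lowest muscle fraction taken was 2.35% and 2.91% in the small and 0.773% and 0.631% in the large intestinal sections. There was no gap at these limits. In small intestinal section 1 the 10 spots just inside ran from 2.35% to 2.47% and the 10 just outside from 2.15% to 2.33%, and in large intestinal section 1 from 0.773% to 0.789% and from 0.739% to 0.770%. Muscle spots held 72.6% and 72.6% of all UMIs of these genes in the small and 60.2% and 62.8% in the large intestinal sections. Because a spot sums over cells, fewer cells of a type and less RNA per cell cannot be told apart in any value below.

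**Figure D1:**
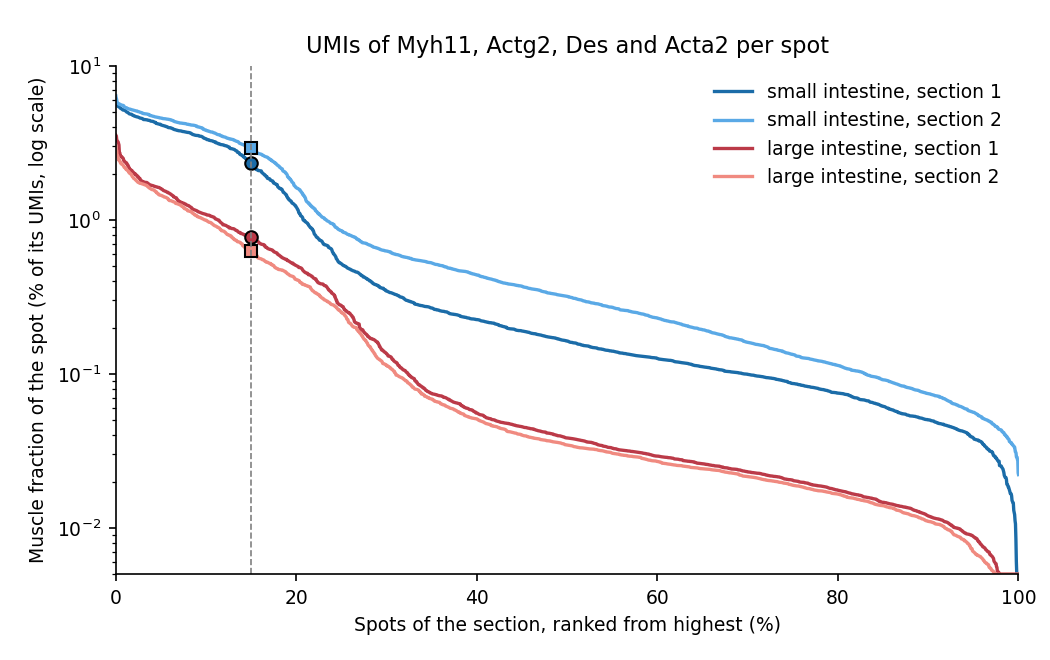
Muscle fraction of each kept spot (percent of its UMIs from Myh11, Actg2, Des and Acta2, log scale) against its rank within the section, with the lowest muscle spot of each section marked and a dashed line at 15%. Both small intestinal curves lie above both large intestinal curves, and no curve has a gap at its mark (2.35% and 2.91% in the small, 0.773% and 0.631% in the large intestine). Spots with a fraction under the axis range, among them those with none of these UMIs, are drawn at its lower edge.

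Depth differed between the groups of spots. Median UMIs were 10075 and 11935 in small and 8922 and 10135 in large intestinal muscle spots. The other spots had 10254.5 and 8220 in the small and 21221.5 and 21863 in the large intestinal sections, so large intestinal muscle spots had fewer than the other spots there. Mitochondrial UMIs were 7.74% and 8.64% in small and 5.76% and 4.67% in large intestinal muscle spots, against 5.60%, 5.09%, 5.48% and 4.61% in the other spots. Levels below are counts per 1000000 UMIs (CPM) of the summed spots. Intervals are exact 95% intervals for counting error only, and a count under 3 was set to 3 before a ratio was taken.

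The choosing genes describe the selection and are no finding. Actg2, which encodes the enteric smooth muscle actin (ENSMUSG00000059430), was at 15523 and 17195 CPM in small and 4665 and 4192 CPM in large intestinal muscle spots. Acta2, the alpha actin of vascular and visceral smooth muscle (ENSMUSG00000035783), was at 9403, 11333, 4826 and 4157 CPM. Des, the intermediate filament protein desmin (ENSMUSG00000026208), was at 7673, 7808, 2062 and 1869 CPM. Myh11, the smooth muscle myosin heavy chain (ENSMUSG00000018830), was at 5516, 6662, 2318 and 2022 CPM. The balance of the 4 genes was not the same in both tissues. Visium captures the 3′ ends of transcripts, so UMIs were not scaled by gene length. Actg2 exceeded Acta2 in both small intestinal sections, with 1.65 and 1.52 Actg2 UMIs per Acta2 UMI, and was level with it in the large intestinal ones, with 0.967 (interval 0.944 to 0.990) and 1.01 (0.986 to 1.03). Des per Acta2 UMI was 0.816 and 0.689 against 0.427 and 0.450, while Myh11 per Acta2 UMI was closer, at 0.587 and 0.588 against 0.480 and 0.487.

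The same ratios were read in spots of like muscle fraction. A window from 0.8% to 2%, chosen after seeing the data, held 120 and 179 small and 256 and 236 large intestinal spots, in which the choosing genes made up 1.38%, 1.29%, 1.26% and 1.25% of UMIs. There Actg2 per Acta2 was 1.33 and 1.21 against 0.960 and 0.997, and Des per Acta2 0.709 and 0.582 against 0.431 and 0.441. Small intestinal window spots lie outside the muscle spots of their own section. These ratios are among the genes that also chose the window, and only describe it.

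All 25 genes of the contractile list, which holds genes of the filament, its regulation and its anchorage other than the 4 choosing genes, were at least 2-fold higher in muscle than in other spots in all 4 sections. Of the 10437 genes compared, those with at least 100 UMIs in the kept spots of each section, 1098 (10.5%) were, and 264 (2.53%) were at least 2-fold lower in all 4. The median log2 ratio of the list was 3.85 and 3.56 in the small and 3.65 and 3.55 in the large intestinal sections, against 0.09, 0.11, 0.13 and 0.14 over all genes compared. The spots were chosen by genes of the same program, so these counts describe the choice. Tagln, the actin-binding protein transgelin, was at 8200.0 and 8949 CPM in small and 4921 and 4418 CPM in large intestinal muscle spots. Its log2 ratios over the other spots were 3.95, 3.68, 4.31 and 4.24. Mylk, the myosin light chain kinase, was at 5619, 6590.1, 1347 and 1125 CPM. Its target chain Myl9 was at 6446, 7189, 2660.5 and 2305 CPM. The brake on the opposing phosphatase, Ppp1r14a, was at 402, 414, 228 and 272 CPM. By CPM all 4 of these genes were higher in the small intestine, whose muscle spots also held the higher share of choosing genes. Per Actg2 UMI, Tagln was lower there, with 0.528 and 0.520 UMIs in small and 1.05 and 1.05 in large intestinal muscle spots. Per UMI of the choosing genes, Mylk stayed higher in the small intestine and Ppp1r14a was lower, as given below. The lowest ratios of the list belonged to genes that other cells also use, Myl6 (2.04, 2.01, 1.24 and 1.11) and, in the large intestine, the filament gene Vim (2.88, 2.92, 1.34 and 1.43) and the anchor gene Vcl (2.68, 2.62, 1.95 and 1.67).

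Promoter sequences of muscle genes were searched for the CArG box, the element bound by serum response factor, which drives many contractile genes. RefSeq promoters (GRCm38.p6, from 250 bases before to 50 after a start site) matched 23 of the 25 contractile genes and 2 of the 4 choosing genes. A strict box was present in 3 of the 23 (Myl9, Myl6 and Vcl) and in neither of the 2. Of the 1098 genes past 2-fold in muscle spots, 828 matched and 33 held a box (3.99%), against 149 of 8310 matched genes among all compared (1.79%) and 535 of 32851 promoters in the table (1.63%). The pattern searched, CC, then 6 bases of A or T, then GG, is the same on both strands, though a given box need not be. It was searched without regard to other motifs. A match is a description of these letters and not a shown binding site, and the short window leaves out more distant elements.

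The boxes of the 3 contractile genes are shown first, then those of the 3 other genes whose lowest ratio over the 4 sections was highest among those with a box. Only bases before the start site are printed, on the gene's strand, with the box in capitals.
Myl9, chr2:156775258-156775357, plus strand, box starting 161 bases before the start site: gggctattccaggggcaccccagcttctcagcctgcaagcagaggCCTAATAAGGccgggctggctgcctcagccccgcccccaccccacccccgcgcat
Myl6, chr10:128493010-128493104, minus strand, box 50 bases before: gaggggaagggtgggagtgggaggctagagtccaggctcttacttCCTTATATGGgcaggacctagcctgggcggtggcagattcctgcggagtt
Vcl, chr14:20929148-20929225, plus strand, box 227 bases before: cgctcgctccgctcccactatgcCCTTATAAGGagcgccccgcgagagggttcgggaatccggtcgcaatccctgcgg
Fbxl22, chr9:66514761-66514843, minus strand, box 222 bases before: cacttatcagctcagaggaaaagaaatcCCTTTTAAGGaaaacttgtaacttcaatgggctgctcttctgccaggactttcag
Trnp1, chr4:133498676-133498775, minus strand, box 180 bases before: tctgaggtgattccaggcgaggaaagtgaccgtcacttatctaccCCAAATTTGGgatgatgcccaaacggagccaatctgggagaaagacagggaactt
Myom1, chr17:71019413-71019512, plus strand, box 99 bases before: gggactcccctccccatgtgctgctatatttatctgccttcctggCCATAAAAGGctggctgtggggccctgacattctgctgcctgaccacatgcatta
Fbxl22, a gene of the F-box family, had log2 ratios of 3.64, 3.34, 3.70 and 3.73. Myom1, which encodes the sarcomere protein myomesin, had 3.81, 3.23, 3.86 and 3.77. Trnp1 had 4.02, 3.62, 3.61 and 3.30. These 3 genes had ratios near the median of the contractile list, and the 6 boxes lay at different distances from the start site.

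The 15 genes with the highest ratios over the 4 sections, beside the choosing genes, included few filament genes. They were Krt17, Ctxn3, Chrm2, Cd59a, Rims1, Hspb7, Bves, Sntg2, Optc, Tpm2, Popdc2, Pdlim3, Hspb1, Gfra4 and Cryab. Tpm2, a tropomyosin, was the most abundant, at 9738 and 10069 CPM in small and 4623 and 4049.8 CPM in large intestinal muscle spots. Chrm2, the M2 muscarinic receptor through which acetylcholine acts on smooth muscle, was at 94.2, 119.7, 63.9 and 56.5 CPM. In the other spots it was at 5.64, 7.52, 2.40 and 2.28 CPM, and its log2 ratios were 4.06, 3.99, 4.74 and 4.63. Large intestinal section 1 had an interval of 4.37 to 5.12 for this ratio. Bves and Popdc2 encode paired members of the Popeye family of cAMP-binding membrane proteins. Bves was at 66.6, 80.3, 30.2 and 21.1 CPM, and Popdc2 at 120.0, 129, 76.9 and 67.1 CPM. Of the small heat shock genes, Hspb1 was at 831, 1041, 365 and 356 CPM and Cryab at 305, 368, 157 and 121 CPM. Rims1, best known from the presynaptic active zone, had ratios of 4.47, 3.94, 5.08 and 5.13, from 365, 574, 123 and 119 UMIs. These ratios are a description of the chosen spots, and the duplicates of each tissue lay within 0.53 of each other for all 15 genes.

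Ion channel and calcium store genes were past 2-fold higher in muscle spots for 10 of the 13 compared, against 10.5% of all genes compared. Cacna1c, the pore of the L-type calcium channel, was at 66.3 and 76.4 CPM in small and 39.3 and 29.4 CPM in large intestinal muscle spots, with ratios of 3.71, 3.45, 3.75 and 3.58. Kcnmb1, the beta subunit of the large-conductance potassium channel, was at 98.5, 119.7, 56.2 and 42.0 CPM. Its pore Kcnma1 was at 30.1, 39.5, 17.2 and 15.4 CPM. Both genes of the channel were higher in small intestinal muscle spots by CPM and lower per muscle UMI (log2 small over large 1.08 and -0.55 for Kcnma1, 1.16 and -0.47 for Kcnmb1). The calcium pump Atp2a2, used by many cells, was at 550.1, 631, 247 and 223 CPM, with ratios of 1.26, 1.40, 0.78 and 0.69. Its inhibitor Pln was at 86.6, 82.8, 32.7 and 32.0 CPM, with ratios of 3.37, 3.20, 4.18 and 4.22. A second pump inhibitor, Sln, had 2 and 4 UMIs in small and 55 and 53 UMIs in large intestinal muscle spots (19.3 and 15.1 CPM), where its ratios were 3.95 and 3.47. The ryanodine receptor genes, whose channels release stored calcium, were low but concentrated in muscle spots. Ryr2 was at 27.0, 33.1, 15.1 and 11.4 CPM, with ratios of 4.25, 3.88, 4.79 and 5.04, and Ryr3 at 22.4, 31.3, 13.3 and 9.14 CPM.

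Genes of the nitric oxide and receptor pathways were past 2-fold higher in 4 of the 6 that could be compared, against 10.5% of all genes. Gucy1a1 and Gucy1b1 encode the subunits of the soluble guanylate cyclase that nitric oxide activates. In muscle spots Gucy1a1 was at 63.2, 77.0, 43.9 and 45.1 CPM, and Gucy1b1 at 68.2, 82.8, 28.4 and 32.3 CPM. Prkg1, the kinase downstream of cyclic GMP, had ratios of 3.66, 3.23, 3.94 and 3.65. Pde5a, which degrades cyclic GMP, was near the other spots in the small intestine (0.35 and 0.28) and above them in the large intestine (2.08 and 1.78). By CPM the muscle spots of the tissues overlapped, at 169, 188, 207 and 157, while the other spots were at 133, 155, 48.8 and 45.7. Of the transcription regulators of smooth muscle, 5 of 9 were past 2-fold (10.5% of all genes), with Foxf1 at 2.66, 2.53, 1.58 and 1.39 and Tead1 at 1.81, 1.74, 2.12 and 2.01. Srf itself, the factor of the CArG box, had ratios of 0.80, 0.23, 0.74 and 1.29. Its muscle cofactor gene Myocd had 44 and 73 UMIs in small and 13 and 9 UMIs in large intestinal muscle spots, too few for the comparison.

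Of the genes named for striated muscle, some were higher and some lower in muscle spots. Ckm, the muscle creatine kinase, was at 397 and 412 CPM in small and 83.2 and 91.4 CPM in large intestinal muscle spots, with ratios of 4.21, 3.76, 4.72 and 4.81. Its brain-type partner Ckb was at 2686, 2901, 785 and 691 CPM, and Ldhb, a lactate dehydrogenase chain, at 189, 202, 51.6 and 56.0 CPM. Tnnt2, the cardiac troponin T, had ratios of 4.10, 3.68, 4.06 and 4.03 from 276, 394, 104 and 118 UMIs. Myl7, an atrial myosin light chain and the other compared gene of the cardiac list, had ratios of -1.97, -2.83, -2.08 and -1.37 from 16, 9, 2 and 7 UMIs. Of the fast skeletal myosin heavy chains, Myh4 had 0 UMIs in every section's muscle spots, Myh1 at most 2, and Myh2 3, 23, 31 and 30. Ldha, the other lactate dehydrogenase chain, went the other way (-1.04, -1.18, -0.65 and -0.67). Of the 13 compared genes of the creatine and glycolysis list, 5 were past 2-fold higher and 0 lower, against 10.5% and 2.53% of all genes.

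Around the muscle cells, basement membrane and adhesion genes were past 2-fold higher in 14 of 15 compared, against 10.5% of all genes. Itga1, an integrin chain for collagen and laminin, had ratios of 3.58, 3.46, 3.37 and 3.20. Col4a1, the network collagen of basement membranes, was at 817, 902, 381 and 317 CPM with ratios of 3.06, 2.94, 2.25 and 2.07. Dmd, dystrophin, was at 76.1, 98.3, 53.0 and 42.5 CPM. Fibroblast genes were enriched in 12 of 13, with Dcn, decorin, at 546, 566, 785 and 659 CPM. Adamdec1, a gene of fibroblasts under the epithelium, was the exception, with ratios of -1.01, -1.45, -0.94 and -1.14. Its small intestinal direction was reversed in the window of like muscle fraction, as given with the limits. Macrophage genes stood at a summed 490.3 and 499.5 CPM in small and 1323 and 1428 CPM in large intestinal muscle spots. In the other spots they were at 232, 248, 790 and 779 CPM, so the tissues differed there too. Of the 8 compared, 0 were past 2-fold higher in muscle spots of all 4 sections, against 10.5% of all genes.

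Enteric neuron genes were concentrated in muscle spots, with 18 of 18 compared genes past 2-fold, against 10.5% of all genes. The neuron list summed to 1959 and 1797 CPM in small and 1094 and 1378 CPM in large intestinal muscle spots, against 211, 469, 162 and 133 CPM in the other spots. Small intestinal section 2 had the highest level outside the muscle spots. Prph, an intermediate filament of enteric neurons, was at 106, 98.5, 86.8 and 95.9 CPM. Nos1, the neuronal nitric oxide synthase of inhibitory motor neurons, was at 19.0, 23.0, 31.6 and 32.8 CPM, with ratios of 4.26, 3.03, 3.96 and 4.54. The neuropeptide gene Gal was at 428 and 185 CPM in small and 31.3 and 35.4 CPM in the large intestine, and was higher in section 1 than in section 2 of the small intestine. Vip was at 196, 179, 166 and 235 CPM so that the tissues overlapped.

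Spots were then ordered by muscle fraction, with the muscle spots in 3 equal bands, to show where these transcripts lay. The neuron list peaked at the edge of the muscle range in the small intestine, at 3469.9 and 3506 CPM in the lowest band of muscle spots against 721 and 824 CPM in the highest band. In the next spots below the limit, between 70% and 85% of the ranking, it was at 1093 and 2987 CPM. In the large intestine the lowest band was at 1168 and 1562 CPM, the middle band at 1152 and 1491 CPM and the highest band at 944 and 957 CPM. The choosing genes themselves went from 29076 and 34032 to 47260.0 and 51045 CPM between these bands in the small and from 9119 and 7998 to 20485 and 18744 CPM in the large intestine. Genes of the mesothelium, Msln and Upk3b among them, also lay at the edge in the small intestine, at 93.7 and 108 CPM in the lowest and 23.5 and 28.7 CPM in the highest band. In the large intestine the lowest, middle and highest bands were at 32.1 and 54.8 CPM, 88.0 and 50.5 CPM and 51.8 and 63.7 CPM, with no order that both sections shared. These bins were cut from the choosing genes and are a description.

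**Figure D2:**
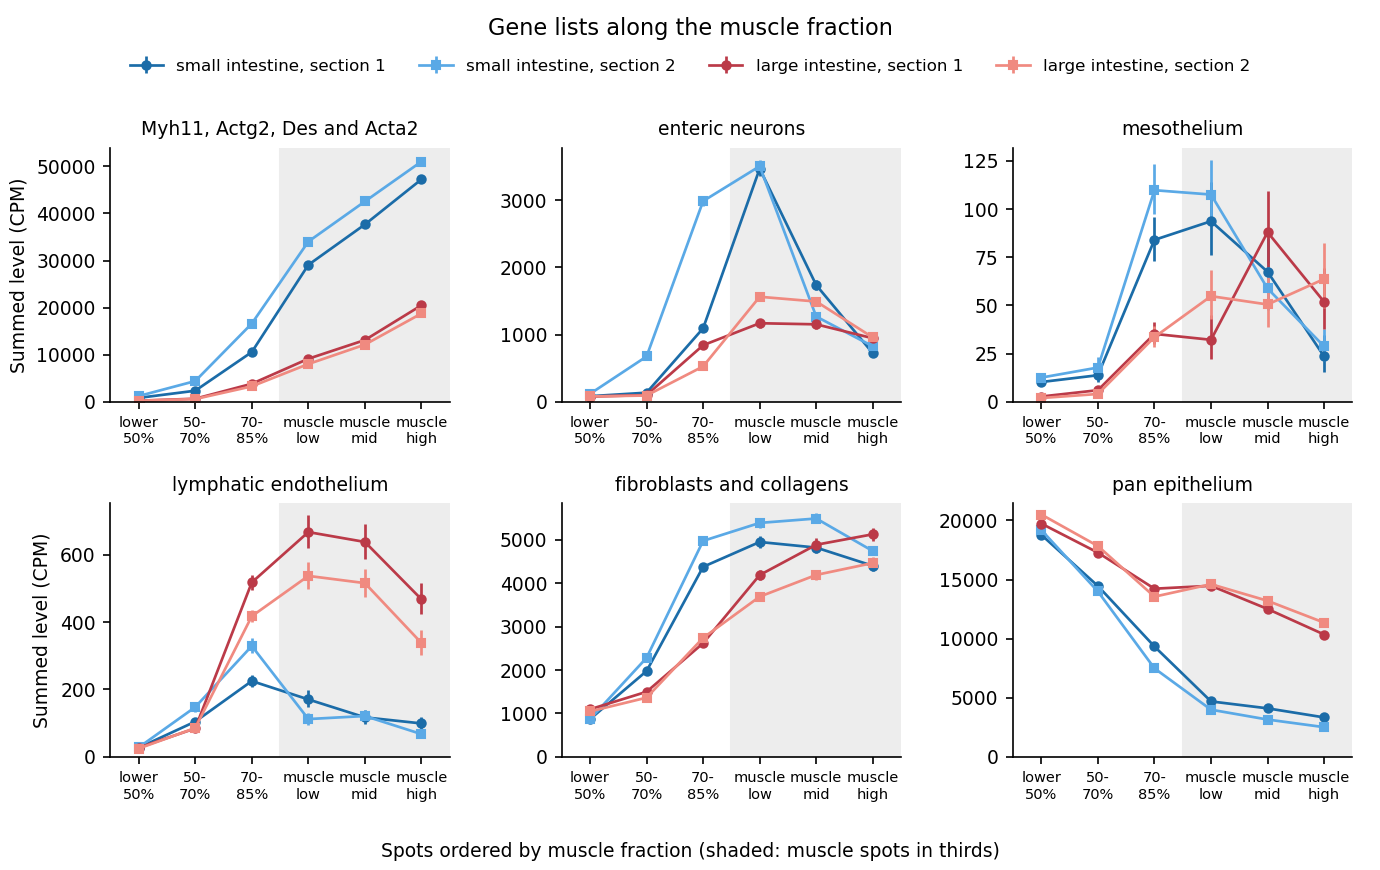
Summed level of 6 gene lists (CPM, with exact 95% counting intervals) in spots ordered by muscle fraction within each section, in 3 bins of other spots and in 3 bands of the muscle spots (shaded). Neuron genes peak in the lowest band of small intestinal muscle spots at 3469.9 and 3506 CPM, while epithelial genes are still at 10350.0 and 11354 CPM in the highest band of large intestinal muscle spots.

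Of the genes of interstitial cells that pace and relay to muscle, 2 of 3 for interstitial cells of Cajal and 1 of 3 for the PDGFRA type were past 2-fold higher in muscle spots of all 4 sections, against 10.5% of all genes. Kit, the receptor that marks interstitial cells of Cajal and also mast cells, was at 67.8 and 79.7 CPM in small and 40.4 and 32.3 CPM in large intestinal muscle spots, against 26.0, 24.8, 17.6 and 15.1 CPM in the other spots. Etv1, a transcription factor of the same cells, had ratios of 3.05, 2.32, 2.71 and 2.96. Ano1, their chloride channel, had ratios of 2.48 and 2.54 in the small intestine and of -0.14 and -0.26 in the large intestine, where the other spots held it at 124 and 123 CPM. To set depth aside, each spot was thinned to 5000 UMIs, which left out 15, 13, 35 and 30 shallower muscle spots and 309, 697, 26 and 27 other spots. Thinned, an Ano1 UMI was seen in 33.8% and 31.5% of small and 38.4% and 38.5% of large intestinal muscle spots, and in 7.55%, 7.19%, 42.6% and 40.3% of the other spots. Without thinning these shares were 49.0%, 54.8%, 58.6% and 60.4%, and 15.4%, 14.4%, 79.0% and 78.4%. Kcnn3, a potassium channel of PDGFRA-type interstitial cells, had ratios of 3.57, 3.26, 3.56 and 3.14, while Pdgfra itself, shared with fibroblasts, had 1.27, 1.29, 1.07 and 0.93. P2ry1, the other gene of the PDGFRA type, had -0.47, -0.51, 0.68 and 0.52. Of the glial genes, S100b had 48, 53, 34 and 31 UMIs in muscle spots and ratios of 3.70, 2.05, 3.84 and 3.16. Erbb3, which epithelium also uses, had the most UMIs of the glial list (158, 185, 315 and 387) and ratios of -1.50, -1.98, -0.03 and -0.05.

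Muscle spots also held transcripts of the other layers, and which tissue held more differed between the lists. The 10 general epithelial genes summed to 4038 and 3183 CPM in small and 12579 and 13268 CPM in large intestinal muscle spots, against 16918, 17429, 18603 and 19088 CPM in the other spots. Epcam was at 473, 372, 656 and 679 CPM, and each of the 10 genes had at least 358 UMIs in every section's muscle spots. Plasma cell genes, mostly Igha and Igkc, summed to 6439, 3841, 30738 and 29899 CPM. Goblet cell genes summed to 3138, 2216, 11843 and 11216 CPM. Paneth cell genes were higher in the small intestine, and summed to 29224, 13026, 337 and 282 CPM. The part of these transcripts in the ratios above was not tested. Pancreatic acinar genes had 0 to 5 UMIs in the muscle spots of a section.

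**Figure D3:**
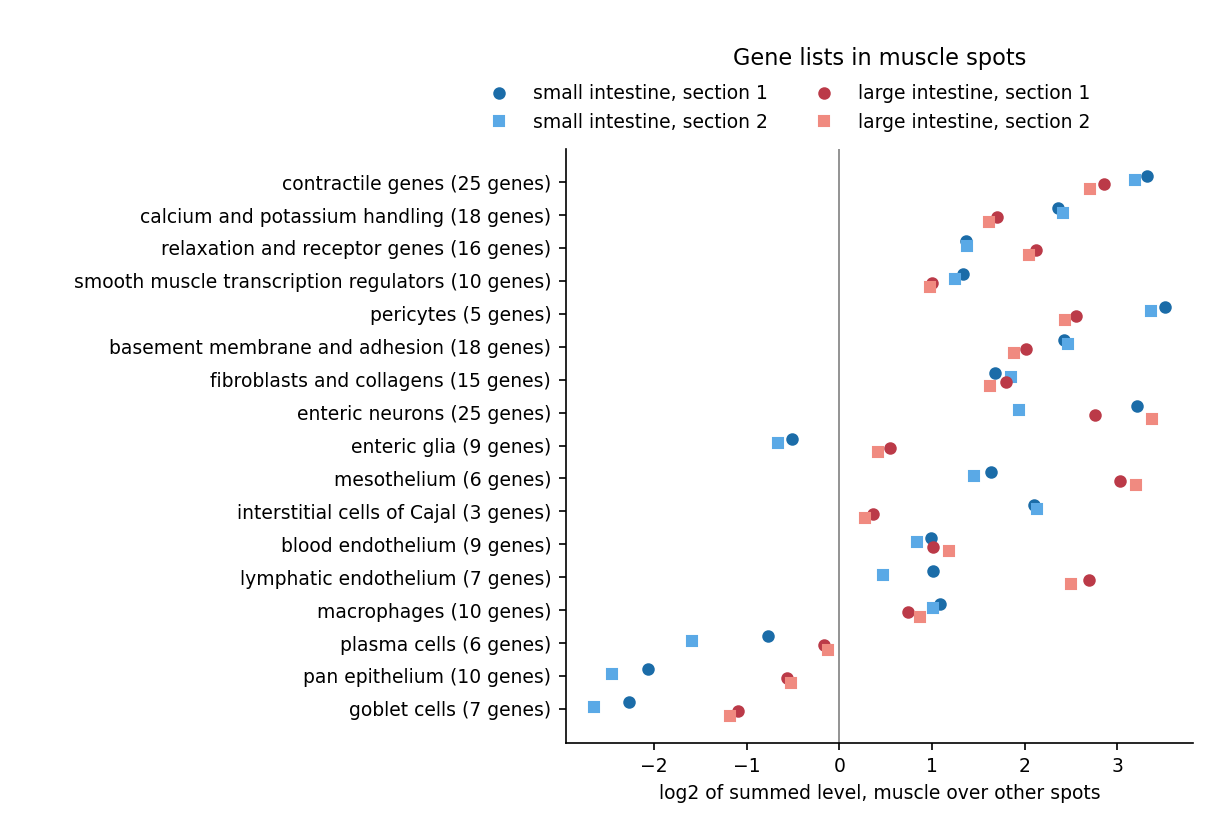
Log2 ratio of the summed level of 17 gene lists in muscle over other spots, 1 point per section. Contractile, pericyte and neuron lists lie right of 0 in all 4 sections, and epithelial and goblet lists lie left of 0, nearer to 0 in the large intestine (pan epithelium -0.56 and -0.52) than in the small (-2.07 and -2.45).

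Lymphatic vessel genes peaked at different ranks of the sections' spots in the tissues, and the muscle fractions of those ranks overlapped. The lymphatic list summed to 129 and 99.2 CPM in small and 597 and 477 CPM in large intestinal muscle spots, against 63.9, 71.8, 92.4 and 84.3 CPM in the other spots. Ccl21a, a lymphatic chemokine, led it at 56.8, 39.5, 399 and 328 CPM. In small intestinal sections the list was highest just below the muscle limit, at 225 and 329 CPM, and at 99.3 and 67.7 CPM in the highest band of muscle spots. In large intestinal sections the lowest band of muscle spots was highest, at 667 and 537 CPM. In the window of like muscle fraction the median difference between tissues over the 6 compared lymphatic genes was 0.16 (log2, small over large), against -1.72 over all muscle spots. Ccl21a was at 124, 189.8, 419 and 342 CPM and Lyve1, a receptor on lymphatic vessels, at 8.30, 24.7, 47.0 and 38.3 CPM in the window, with differences there of -1.30 and -1.57. Blood endothelial genes summed to 247, 252, 207 and 229.6 CPM.

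Rgs5, a regulator of G protein signalling used as a pericyte marker, was the most abundant of the 5 pericyte genes, of which 3 were past 2-fold (10.5% of all genes). It was at 1875 and 2145 CPM in small and 183 and 153 CPM in large intestinal muscle spots, against 142, 183, 29.4 and 25.3 CPM in the other spots. Along the muscle fraction it was highest in the highest bands, at 2182, 2424, 228 and 226 CPM. Every thinned muscle spot of the small intestine held an Rgs5 UMI, against 56.6% and 52.0% of those of the large intestine. Per Actg2 UMI, Rgs5 had 0.121 and 0.125 UMIs in small and 0.0392 and 0.0365 in the large intestine, and in the window 0.139 and 0.142 against 0.0410 and 0.0371. Cspg4, another pericyte gene, was at 109.6, 126, 48.1 and 52.0 CPM, and Pdgfrb at 20.9, 17.8, 17.6 and 18.3 CPM. In the other spots the tissues were closer, with 0.175 and 0.164 against 0.155 and 0.143 Rgs5 UMIs per Actg2 UMI. In muscle spots small intestinal Rgs5 was thus higher by CPM and per Actg2 UMI, and in the window per Actg2 UMI. Pdgfrb was at 17.6 to 20.9 CPM in the muscle spots of all 4 sections.

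Muscle and nearby mesenchyme supply antagonists of bone morphogenetic protein (BMP) and agonists of Wnt signalling to the crypt base. The antagonist gene Grem1 and the agonist gene Rspo3 were among the secreted signals enriched in muscle spots. Of the 17 compared genes of this mixed list of signals, 8 were past 2-fold, against 10.5% of all genes. Grem1, a BMP antagonist, was at 436 and 456 CPM in small and 125 and 119 CPM in large intestinal muscle spots, with ratios of 3.52, 3.25, 3.50 and 3.69. Per 1000 UMIs of the choosing genes it had 11.4, 10.6, 9.04 and 9.73 UMIs, so the tissues differed by CPM and were close on this scale. Chrdl1, another BMP antagonist, was at 19.6, 19.3, 46.0 and 34.0 CPM. Rspo3, a Wnt agonist that lymphatic vessels also make, was at 34.7, 29.6, 24.2 and 22.8 CPM, with ratios of 3.61, 3.17, 3.93 and 3.64. Sfrp1, a secreted Wnt inhibitor, was at 53.7, 42.2, 103 and 106 CPM, and its relative Sfrp2 had 0 and 4 UMIs in small and 79 and 77 UMIs in large intestinal muscle spots. The epithelial ligand gene Bmp2 was lower in muscle than in other spots (-2.15, -2.35, -0.93 and -1.11).

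Small and large intestinal muscle spots were then compared with each other. A gene counted as higher in a tissue when its lower section was at least 2-fold above the higher section of the other tissue. Among all genes with at least 100 UMIs in the muscle spots of a section of the higher tissue, 481 of 6462 (7.44%) were higher in the small and 722 of 5383 (13.4%) in the large intestine. Muscle-layer genes were then taken, those at least 2-fold higher in muscle than in other spots in both sections of the higher tissue. Muscle spots of the small intestine held a higher share of choosing genes and a lower one of epithelial genes, as given above. Of the muscle-layer genes, 325 of 1582 (20.5%) were higher in the small and 32 of 714 (4.48%) in the large intestine. The latter count was 53 without large intestinal section 1 and 16 with median-of-ratios size factors. The split depended on the scale. Per UMI of the choosing genes, 32 and 360 were higher. This scale lowers the level in the small relative to the large intestine for every gene, because small intestinal muscle spots held more choosing-gene UMIs. That all of those 32 and 32 of the 360 were the same genes as by CPM was therefore fixed in advance. The median difference over all compared genes was -0.09 by CPM and -1.73 per muscle UMI, and over the 1098 genes enriched in muscle spots 0.59 and -1.04. In the window it was -0.02 and 0.01. There, 191 of 1907 genes (10.0%) were higher in the small and 471 of 4128 (11.4%) in the large intestine. Of the CPM counts, 55 small and 16 large intestinal muscle-layer genes were also past 2-fold in the window, and 30 and 16 passed on all 3 scales. For the large intestine the scale per muscle UMI could remove none of the 16.

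**Figure D4:**
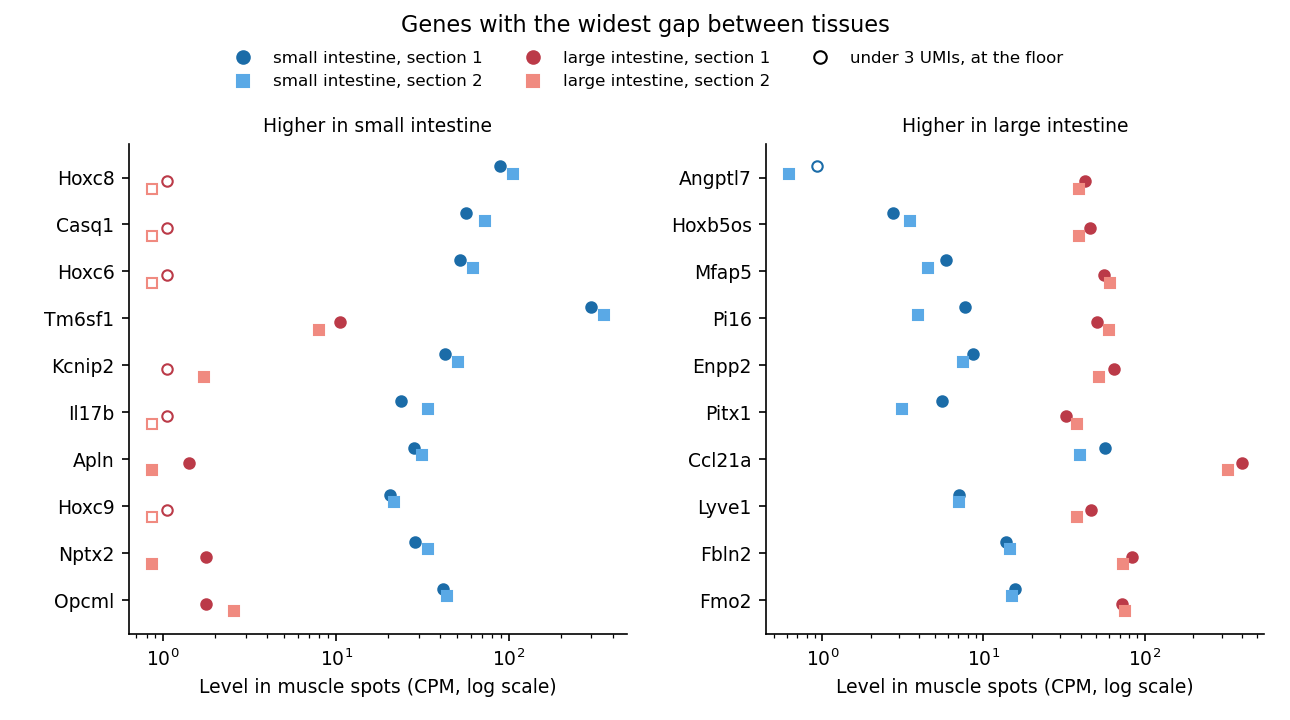
Level in muscle spots (CPM, log scale) of the 10 muscle-layer genes with the widest gap between tissues in each direction, 1 point per section, with open points for counts under 3 UMIs drawn at the floor of 3. The sections of a tissue do not overlap those of the other for any gene shown, and Hoxc8 lies at 88.7 and 105 CPM in the small intestine with 0 UMIs in the large.

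Muscle-layer genes higher in the small intestine included 3 Hox genes and a calcium store gene. The 10 muscle-layer genes with the widest gap were Hoxc8, Casq1, Hoxc6, Tm6sf1, Kcnip2, Il17b, Apln, Hoxc9, Nptx2 and Opcml. Casq1, a calsequestrin that stores calcium and is best known from skeletal muscle, was at 56.8 and 72.5 CPM in small intestinal muscle spots and had 2 and 1 UMIs in large intestinal ones. Over the summed sections of a tissue the ratio was 140.0-fold by CPM, with a counting interval of 47.6 to 681. Casq2, its cardiac-type relative, was at 114, 134, 17.2 and 12.6 CPM, a log2 difference of 3.07 by CPM, 1.44 per muscle UMI and 1.69 in the window. Kcnip2, a subunit of voltage-gated potassium channels, was at 42.7 and 50.9 CPM and had 2 and 6 UMIs in the large intestine. Apln, the ligand apelin, was at 28.2 and 31.3 CPM with 4 and 3 UMIs in the large intestine, and the cytokine gene Il17b at 23.6 and 34.2 CPM with 2 and 2 UMIs. Tm6sf1, the most abundant of the 10, was at 299.6, 356, 10.5 and 7.99 CPM. Among the genes most concentrated in muscle, Cd59a, a complement regulator, was at 746, 842, 79.4 and 65.4 CPM and Optc, opticin, at 302, 359.6, 30.2 and 36.0 CPM. Their differences were 1.82 and 1.69 per muscle UMI and 1.73 and 1.51 in the window.

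Of the calcium and potassium handling genes, 6 of 15 compared were at least 2-fold higher in the small intestine by CPM and 1 per muscle UMI. By CPM 7.44% of all genes with 100 UMIs and 20.5% of muscle-layer genes were, and per muscle UMI 32 of 1582 muscle-layer genes. Kcnj8 and Abcc9 encode the subunits of the ATP-sensitive potassium channel of smooth muscle. Kcnj8 was at 152, 173, 46.7 and 47.7 CPM, and Abcc9 at 149.5, 200.4, 53.7 and 50.8 CPM. Their log2 differences were 1.78 and 1.73 by CPM, 0.15 and 0.09 per muscle UMI and 0.35 and 0.35 in the window. Of the contractile list, 17 of 25 genes were past 2-fold by CPM, 0 per muscle UMI and 0 in the window, where the list's median was 0.07, beside 7.44% of all genes by CPM and 10.0% in the window. Mylk had the largest difference per muscle UMI of the list (0.67) and was 0.77 in the window. Vim had the lowest (-1.30), followed by Ppp1r14a (-0.92).

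In the large intestine, 2 of 15 compared fibroblast and collagen genes were at least 2-fold higher by CPM, against 13.4% of all genes. Of the 7 lymphatic genes only 3 had enough UMIs in large intestinal muscle spots to be compared, and all 3 were higher. In the window 2 and 0 were, against 11.4% of all genes. By CPM so were 7 of 7 large intestinal surface, 6 of 7 goblet cell and 4 of 5 plasma cell genes. Macrophage genes were in 3 of 6 and general epithelial genes in 4 of 10. The contractile and neuron lists had 0 of 25 and 0 of 16. The 10 with the widest gap among muscle-layer genes were Angptl7, Hoxb5os, Mfap5, Pi16, Enpp2, Pitx1, Ccl21a, Lyve1, Fbln2 and Fmo2. Angptl7, a secreted angiopoietin-like protein, had the widest gap of these muscle-layer genes. It had 1 and 3 UMIs in small intestinal muscle spots and was at 42.5 and 39.4 CPM in large intestinal ones. Over the summed sections it was 82.5-fold higher in the large intestine, with a counting interval of 31.8 to 305.0. In the window it had 0 UMIs in both small intestinal sections and was at 35.6 and 35.4 CPM in the large intestinal ones. It was at 34.0 and 20.2 CPM in the lowest and 59.9 and 81.0 CPM in the highest band of large intestinal muscle spots. Pi16 and Mfap5 are genes of adventitial fibroblasts. Pi16 was at 7.67, 3.93, 50.6 and 60.2 CPM in muscle spots and at 16.6, 20.4, 47.9 and 54.8 CPM in the window. Mfap5 was at 5.83, 4.55, 55.8 and 60.8 CPM in muscle spots and at 24.0, 20.4, 52.5 and 60.4 CPM in the window, a smaller gap for both. Enpp2, which makes lysophosphatidic acid, was at 34.1 and 39.2 CPM against 64.0 and 51.5 CPM there and no longer past 2-fold. Pitx1, a transcription factor of the hind part of the body, was at 5.53, 3.11, 32.3 and 38.0 CPM in muscle spots and at 11.1, 16.2, 29.7 and 41.1 CPM in the window. There Pitx1, Ccl21a and Lyve1 were no longer past 2-fold either. Hoxb5os is annotated antisense to Hoxb5, and the strand setting of the counting is not given in the sources used here, so its 45.7 and 39.1 CPM may hold reads of Hoxb5.

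Hox genes, the transcription factors that specify position along the body axis, had some of the widest gaps between the tissues. Of the 39 Hox genes, 10 had at least 100 UMIs in the muscle spots of a small intestinal section, and 7 of these were at least 2-fold higher there by CPM, 3 per muscle UMI and 6 in the window. In the large intestine 4 had as many, and 3 of these were at least 2-fold higher there by CPM, 4 per muscle UMI and 3 in the window. In the window's own spots only 1 and 2 Hox genes had 100 UMIs, of which 0 were higher in the small and 2 in the large intestine. By CPM 7.44% and 13.4% of all genes with as many UMIs in muscle spots were higher in the small and the large intestine. Among genes with as many in the window's spots, 10.0% and 11.4% were. Per muscle UMI 32 of 1582 and 360 of 714 muscle-layer genes were, and the share over all genes was not taken. A gene entered the Hox counts through the tissue in which it had the UMIs, so they only describe the members. Hoxc8 had 289 and 507 UMIs (88.7 and 105 CPM) in small and 0 UMIs in large intestinal muscle spots, at least 84.2-fold higher by CPM and 30.6-fold per muscle UMI with 3 UMIs in a section as the floor. Hoxc6 had 170 and 298 UMIs against 0 and 1, and Hoxc9 67 and 105 against 0 and 0. All 3 were concentrated in the muscle spots of the small intestine, with ratios of 3.67 and 3.33 for Hoxc8, 3.26 and 2.95 for Hoxc6 and 3.55 and 3.01 for Hoxc9. Thinned to 5000 UMIs, a Hoxc8 UMI was seen in 36.1% and 39.5% of muscle and 3.47% and 5.37% of other spots of the small intestine (58.9% and 66.5% and 7.30% and 9.42% without thinning). In the large intestine it was seen in 0 of 279 and 0 of 296 thinned muscle spots.

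Genes at the posterior end of the clusters showed the reverse. Hoxb13 was at 2.46 and 1.24 CPM in small and 278 and 327 CPM in large intestinal muscle spots, 176-fold higher over the summed sections (interval 105 to 323), and Hoxd13 had 1 and 0 against 195 and 250 UMIs. Hoxa10 had 1 and 4 against 92 and 117 UMIs and Hoxa13 0 and 3 against 54 and 83. Hoxb13, Hoxd13 and Hoxa13, unlike Hoxc8, were not concentrated in muscle spots. Their ratios in the large intestine were -0.38 and -0.18 for Hoxb13, 0.01 and 0.28 for Hoxd13 and -0.90 and -0.49 for Hoxa13. Hoxd12, at 29 and 45 UMIs, and Hoxa11, at 28 and 23 UMIs, had higher ratios, 1.62 and 1.95 for Hoxd12 and 1.81 and 1.33 for Hoxa11. More anterior genes were present in both tissues. Hoxa5 was at 29.8, 36.4, 27.0 and 31.4 CPM, and Hoxb5 at 44.2, 54.6, 27.0 and 24.0 CPM. Hoxb6 was at 23.3, 26.5, 2.81 and 5.14 CPM, and the other spots of the small intestine held more of it (37.8 and 43.8 CPM). The Hox cofactor genes were enriched in all 4 sections, Meis1 at 45.1, 53.0, 35.5 and 28.0 CPM against 4.79, 6.29, 2.21 and 2.48 CPM in the other spots and Meis2 at 76.1, 90.3, 48.1 and 36.5 CPM against 4.22, 6.97, 2.92 and 2.45 CPM. Neighbouring Hox genes overlap in places, and without the strand setting their reads cannot be told apart where they do.

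**Figure D5:**
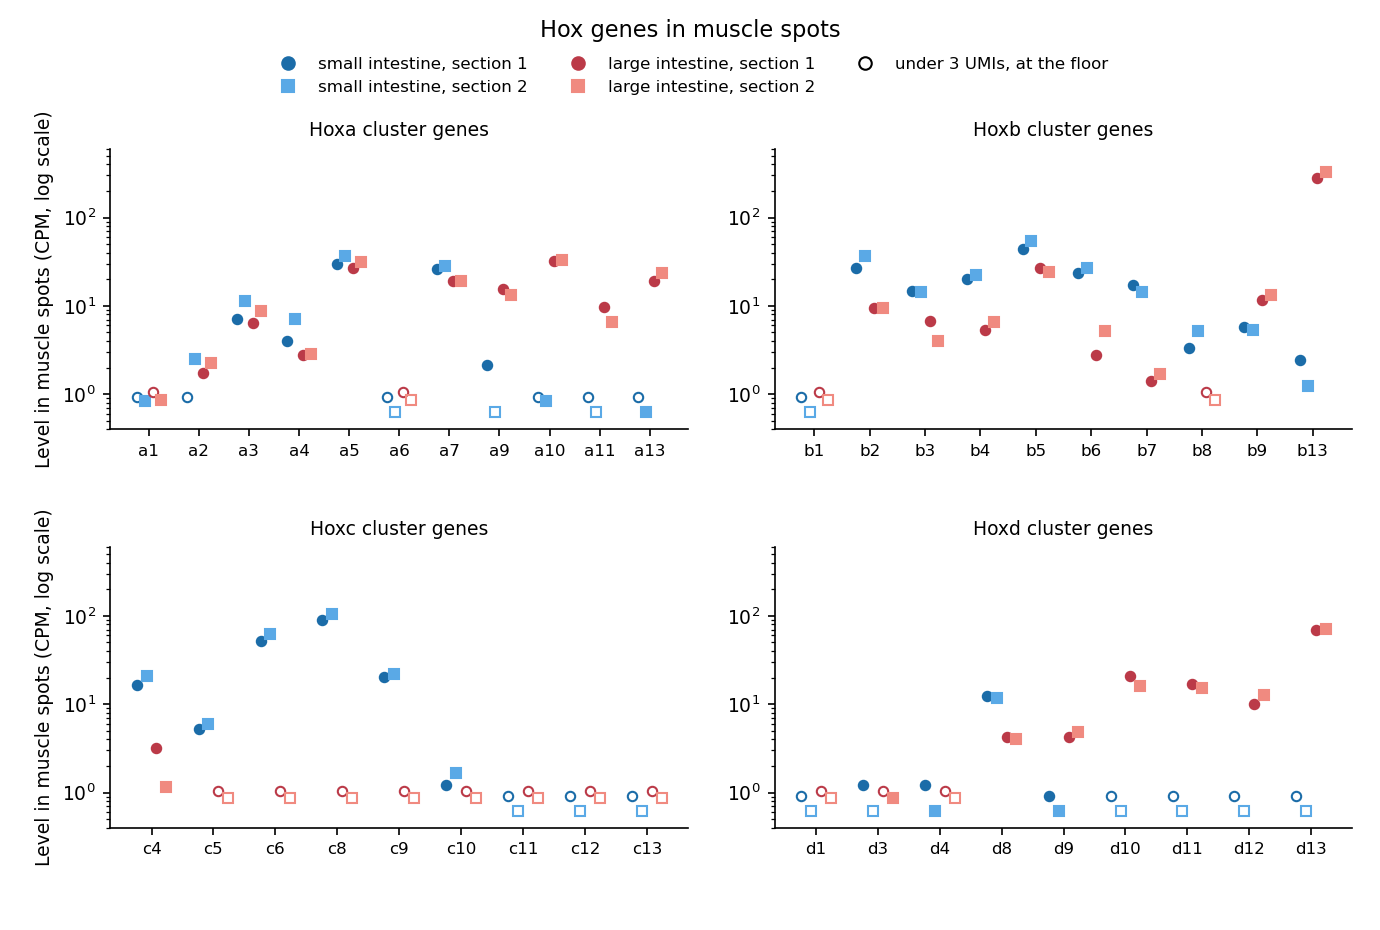
Level of the 39 Hox genes in muscle spots (CPM, log scale), 1 panel per cluster and 1 point per section, with open points for counts under 3 UMIs drawn at the floor of 3. Hoxc6, Hoxc8 and Hoxc9 are filled in the small intestine and open in the large, and Hoxd10 to Hoxd13 the reverse.

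A last group of genes had muscle-to-other ratios that differed most between the tissues. Ranked by the gap between the tissues' ratios, Car2, Hoxa7, Gpr20, Eno3, Maob, Ppp1r3b, Anxa1, Fam124a, Prkacb and Gmpr had the higher ratio in the small intestine. Car2, a carbonic anhydrase, was at 29.5 and 36.0 CPM in muscle and 5.69 and 6.97 CPM in other spots of the small intestine. In the large intestine it was at 268 and 279.5 CPM in muscle and 796 and 785 CPM in other spots. Eno3, the muscle enolase, had ratios of 3.14, 2.97, -0.38 and -0.18, and Hoxa7 of 3.30, 3.22, -0.45 and -0.44. Gpr20, a receptor gene found in interstitial cells of Cajal, had 3.40, 3.37, 0.02 and -0.40. By CPM Eno3 was at 72.4, 71.2, 212 and 252 in muscle and 8.25, 9.11, 276 and 284 in other spots, and Hoxa7 at 26.1, 28.4, 19.0 and 19.1 in muscle and 2.65, 3.05, 26.0 and 26.0 in other spots. For Car2, Eno3 and Hoxa7 the other spots of the large intestine were above those of the small intestine.

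The reverse group, with the higher ratio in the large intestine, held Enpep, Maf, Prss23, Slc16a10, Tbx3, Cd55, Slc28a2, Anpep, Mpp1 and Fam20a. Enpep and Anpep encode aminopeptidases of the small intestinal brush border. Enpep had ratios of -2.70 and -2.70 in the small and 2.39 and 2.76 in the large intestine. In the small intestine it was at 746 and 924 CPM in other and 115 and 142 CPM in muscle spots, and in the large intestine at 2.21 and 2.48 CPM in other and 11.6 and 16.8 CPM in muscle spots. Tbx3, a transcription factor, was at 64.5, 67.3, 14.0 and 14.6 CPM in muscle and 195, 263, 4.95 and 4.02 CPM in other spots. Prss23, a serine protease, was at 177, 203, 119 and 101 CPM in muscle and 299, 378, 16.7 and 17.3 CPM in other spots. Anpep was at 687, 826, 7.38 and 8.28 CPM in muscle and 2683, 4225, 3.78 and 4.34 CPM in other spots. For all 4 genes the other spots differed between the tissues by more than the muscle spots did.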

How the data were processed

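Spatial transcriptomes were deposited by the authors as filtered matrices of UMI counts per gene and spot. The matrix headers name Space Ranger 1.2.1, and the submitters' processing notes name Cell Ranger 6.0.1 and mm10. The counting's strand setting is not given in the sources used here. Of 8947 deposited spots, 8938 had at least 500 UMIs and were kept. Muscle spots, and all gene lists, were chosen with earlier results of these data known.

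UMIs were summed per section over muscle and over other spots and divided by the summed total as CPM. A gene counted as compared between muscle and other spots with at least 100 UMIs in the kept spots of each section. Between tissues it needed 100 UMIs in the muscle spots of a section of the higher tissue. Counts under 3 were set to 3 before ratios. Between tissues, levels were also taken per UMI of the 4 choosing genes and in spots of 0.8% to 2% muscle fraction. No test was run, because spots were chosen on the contrast described and each tissue is 1 sample. Exact 95% intervals (Poisson ratio or Clopper-Pearson) cover counting error only.

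Genes were named by a rule: the 4 choosing genes, the 15 with the highest lowest-section ratio, the 10 muscle-layer genes with the widest gap between tissues in each direction, the 10 in each direction whose ratios differed most, and members of 33 lists (385 genes). Mitochondrial, ribosomal protein, sex-linked and unnamed gene models were left out of these ranks. Genes with a promoter box and some list members were singled out after their values were seen. Of 32285 gene IDs, 32158 matched the reference table of symbols. The 4 single-cell libraries were not used. Doublet calling does not apply to spots, and spot positions were not used. The functions were tested on simulated counts. Python 3.11.15, numpy 2.4.6, scipy 1.17.1, pandas 2.3.3 and matplotlib 3.10.9 were used. The alternatives tried are given with the limits.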

Additional observations from a re-analysis of the deposited data

Results flagged for a closer look

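Of 233 compared genes on the lists, 10 (4.29%) had opposite directions in the tissues, with both small intestinal sections on one side of the other spots and both large intestinal sections on the other, against 512 of all 10437 genes compared (4.91%). The difference between tissues was not tested. Higher in small and lower in large intestinal muscle spots were Hoxa7 with a mean log2 ratio of 3.26 and -0.45, Eno3 with 3.05 and -0.28, Gatm, an enzyme of creatine synthesis, with 0.70 and -0.76, and Slc12a2, a chloride cotransporter, with 0.68 and -0.48. The reverse held for 6 genes. Lyz1, the lysozyme of Paneth cells, was at -0.56 and 2.23, and Tbx3 at -1.78 and 1.68. The signalling genes Axin2 and Ihh were at -0.98 and 0.66 and at -1.81 and 0.28. Igha, the heavy chain of immunoglobulin A, was at -1.26 and 0.14, and the purine receptor gene P2ry1 at -0.49 and 0.60. In muscle spots Lyz1 was at 2595, 1122, 22.1 and 26.3 CPM, and in other spots at 3070.3, 2072, 5.60 and 4.71 CPM.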

How the results depend on the processing

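The alternatives tried were 17, of which the window was chosen after seeing the data. With 2 technical sections a tissue and spots taken by rank, muscle content and depth limit every comparison between tissues.

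The count of 1098 genes enriched in muscle spots was 4298 with a minimum of 1 UMI and 703 in the window. The 325 muscle-layer genes higher in the small intestine were 32 per UMI of the choosing genes, 490 with a minimum of 1 UMI and 37 where muscle-layer genes were also redefined from the window's spots. The 32 higher in the large intestine were 16 with median-of-ratios size factors, 360 per UMI of the choosing genes, 56 with a minimum of 50 UMIs and 133 with a minimum of 1 UMI. The median contractile log2 ratio of 3.65 was 3.38 with the top 10% of spots, 3.87 with the top 20%, 3.31 with median-of-ratios size factors, 3.27 as the mean over spots and 3.20 in the window. Why these values moved was not tested.

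Leaving out a section in turn gave 1139 to 1224 enriched genes, 274 to 471 higher in the small and 36 to 53 higher in the large intestine (53 without large intestinal section 1), and medians of 3.59 to 3.69. Choosing spots by Tagln, Myl9, Cnn1 and Tpm2 moved none of these 4 values past 1.5 times or the spread. One threshold of muscle fraction for all sections left 265, 385, 8 and 1 spots, so it gave no value for the large intestine.

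Of 9523 single-gene values, 7284 stayed within the spread, 2228 moved and 11 were reversed. Myh11 between tissues went to -0.15 per UMI of the choosing genes and -0.11 in the window. In the window the differences between tissues of Mmrn1, Cldn7 and Spdef were 0.27, 0.05 and 0.12. Small intestinal ratios there were 0.37 for Adamdec1, 0.01 for Mzb1, 0.13 for Spdef, 0.39 for Ang4, 0.82 for Olfm4 and -0.03 for Acta1. No paired analysis was possible because the results come from no test and the section numbers name technical duplicates of different tissues.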

Other observations

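Of the 9 immediate-early genes compared, 1 was past 2-fold higher and 1 past 2-fold lower in muscle spots of all 4 sections, against 10.5% and 2.53% of all genes compared. The list's median log2 ratio was -0.95 and -1.05 in the small and -0.11 and 0.09 in the large intestinal sections. Fos was at 25.5 and 26.9 CPM in small and 38.3 and 40.8 CPM in large intestinal muscle spots, with log2 ratios of -2.16, -2.27, -1.83 and -1.73. Nr4a1, a nuclear receptor gene induced by many stimuli, had ratios of 2.61, 2.51, 2.55 and 2.23. The sections of each tissue gave like ratios for both genes.

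Adipocyte genes summed to 161, 131, 43.2 and 45.1 CPM in muscle spots against 134, 99.7, 7.16 and 12.7 CPM in the other spots, and Adipoq, an adipokine gene, had 11, 9, 0 and 4 UMIs in muscle spots. Plin4, a lipid droplet gene on the same list, had ratios of 3.57, 3.66, 4.77 and 4.53. Smoc2, a matrix protein gene of the crypt and stem cell list also used by stroma, had ratios of 2.23, 2.61, 1.54 and 1.43. Surface genes of the small intestine summed to 1545 and 1797 CPM in small intestinal muscle spots and those of the large intestine to 2497 and 2505 CPM in large intestinal ones.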
